A study of Mus musculus with 6 samples.

Results

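The cytosolic ribosomal proteins are the proteins of the small (40S) and large (60S) subunit of the ribosome outside mitochondria. Their genes were chosen by symbol: every gene named Rps or Rpl with a number (and, where present, a closing letter), together with Rpsa, Rplp0, Rplp1 and Rplp2, and without the Rps6k kinases. Of the 18182 genes in the files, 83 met this rule, 32 of the 40S and 51 of the 60S subunit. After a filter on low counts 80 remained among 13353 tested genes. Rpl3l, Rpl32l and Rpl39l did not pass it. The study sequenced RNA of a murine cancer line, Lewis lung carcinoma (LLC), that was made to carry red fluorescent protein (LLC-RFP). Wild type C57BL/6 mice received LLC-RFP cells under the skin, either alone (LLC alone, 3 libraries) or mixed with bone marrow-derived mesenchymal stem cells (LLC with BMSCs, 3 libraries), and fluorescent cells were sorted from the primary cancer sites. The comparison asks how the RNA of the cancer cells differs when BMSCs are injected with them. The labels name no separate animal for each library, so p-values measure the spread between these libraries, which may be technical. The files gave 33476347 to 46189113 estimated counts per library.

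Ribosomal protein genes are among the most strongly expressed genes of dividing cells, and most of their products are present once in each ribosome. Proteins made in excess of the others are degraded. Most of these mRNAs begin with a run of pyrimidines at the 5′ end, the 5′ TOP motif, through which the mTORC1 pathway and the LARP1 protein regulate their translation and stability. The mRNAs are short, so any bias over transcript length touches them more than other genes.

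Sequences near the starts of 8 members are shown. Each holds a run of pyrimidines, and the members cover both ends of the results. Rpl37, Rpl34, Rpl28, Rps12 and Rplp2 were lower in LLC with BMSCs, and Rpl14, Rpl4 and Rps6 did not pass the test. Each line gives 30 bases of RefSeq sequence (build GRCm38.p6, 5′ to 3′ on the strand of the gene) around the longest unbroken run of C and T within 50 bases of the first listed start. Capitals mark that run. It begins at base 29 in Rpl37, -13 in Rpl34, -3 in Rpl28, 9 in Rps12 and -5 in Rplp2, counted from the start. In Rpl14, Rpl4 and Rps6 it begins at -8, 27 and -1. A window thus need not hold the start itself, and whether a run opens the mRNA was not tested.
Rpl37 (chr15:5116631-5116660, + strand): ggcgggggtgCTTTCTCTTCCggtctcttt
Rpl34 (chr3:130730393-130730422, - strand): ctgacgcgccgCCTTCCCTgacgtacttcc
Rpl28 (chr7:4792952-4792981, + strand): gcctctcgtgTCTCTCTTTCCgtctccggc
Rps12 (chr10:23787182-23787211, - strand): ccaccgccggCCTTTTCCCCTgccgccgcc
Rplp2 (chr7:141447636-141447665, + strand): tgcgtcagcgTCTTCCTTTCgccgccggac
Rpl14 (chr9:120571501-120571530, + strand): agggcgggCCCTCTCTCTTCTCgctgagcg
Rpl4 (chr9:64173405-64173434, + strand): gagcgtggCCTTCTCCTCTCCCCgtcatgg
Rps6 (chr4:86857349-86857378, - strand): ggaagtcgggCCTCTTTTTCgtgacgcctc

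A RefSeq start was matched for 63 of the 83 members. A run of at least 8 pyrimidines lay within 50 bases of the start in 51 of them (81.0%), against 35.7% of the 27025 genes with a listed start, and the median longest run was 10 bases in the members and 7 in all. The 7-letter motif CCGGAAG, the core bound by ETS factors, stood on either strand of the 300-base window in 25 members (39.7%) and in 9.12% of all. Across the 60 tested members with a matched start, Spearman's rho between the length of the run and the log2 fold change was 0.20, a description over genes that share the same 6 libraries. The 48 members with a run of at least 8 had a median log2 fold change of -0.40, and the 12 without one had -0.47.

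The members took a smaller share of all counts in LLC with BMSCs. In LLC alone they held 7.39%, 7.31% and 9.15% of the counts in replicates 1 to 3, and in LLC with BMSCs 5.73%, 6.22% and 6.09%. The groups did not overlap, and the mean fell from 7.95% ± 1.04 to 6.01% ± 0.254 (SD, n = 3 each), a ratio of 0.756. LLC alone replicate 3 stood above the other libraries of its group. Both subunits moved together: the 40S genes went from 3.36% ± 0.435 to 2.56% ± 0.124 and the 60S genes from 4.59% ± 0.607 to 3.45% ± 0.130. The ratio of 40S to 60S counts was 0.723, 0.745 and 0.731 in LLC alone and 0.733, 0.750 and 0.741 in LLC with BMSCs, so that the groups overlapped. A share of sequenced RNA does not give an amount per cell, and fewer cells of a type cannot be told apart from less RNA per cell.

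**Figure D1:**
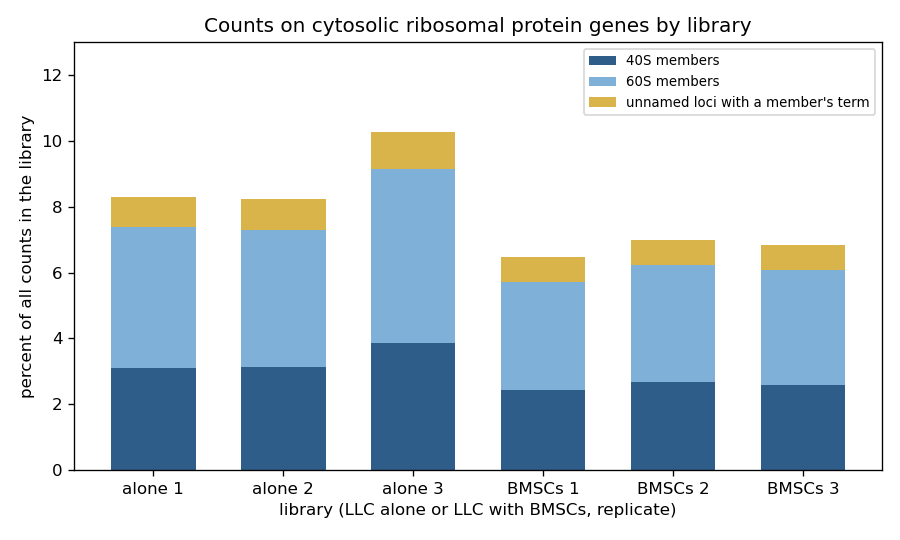
Percent of all counts in each library on the 40S members (dark blue), the 60S members (light blue) and unnamed assembled loci with the same orthology term as a member (yellow). The 3 bars of LLC with BMSCs (right) end between 6.48% and 6.99%, below the 3 bars of LLC alone (left), which end between 8.24% and 10.3%.

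Tested singly, 54 of the 80 members (67.5%) were lower in LLC with BMSCs and none was higher, at an adjusted p under 0.05 in edgeR's quasi-likelihood test with Benjamini-Hochberg adjustment over all tested genes. Among all 13353 genes 31.3% were lower and 31.5% higher. At an unadjusted p under 0.05 the number of members higher was also 0, and it was 0 with DESeq2 and with limma on log2(FPKM + 1), which called 60 and 46 members lower. The median log2 fold change of the members was -0.40, a ratio of 0.757, beside 0.01 for all tested genes. Their quartiles were -0.58 and -0.24, and values ran from -0.96 for Rpl37 to 0.22 for Rpl27. The changes were small: 27 members were called with a log2 fold change at or below -0.5, a limit passed by 18.0% of all genes on the lower side, and none reached -1. In 59 members the normalized counts of the groups did not overlap, always with LLC with BMSCs lower, whereas 34.6% of all genes had such a gap on the lower side. By subunit, 20 of 32 genes of the 40S (median -0.38) and 34 of 48 of the 60S (median -0.46) were lower.

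LLC alone replicate 3 stood apart from the other libraries in these genes. Its median deviation from the mean of all 6 libraries was 0.42 on the log2 scale over the members, while replicates 1 and 2 had 0.11 and 0.07 and the libraries of LLC with BMSCs lay between -0.27 and -0.15. Other genes under 1000 bases deviated in the same way (0.39 in LLC alone replicate 3, and -0.26 to 0.08 in the other libraries). Without that library 54 members were lower and 0 higher (33.5% of all genes lower), and the median log2 fold change of the members was -0.29. The part of this library in the result was otherwise not tested.

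**Figure D2:**
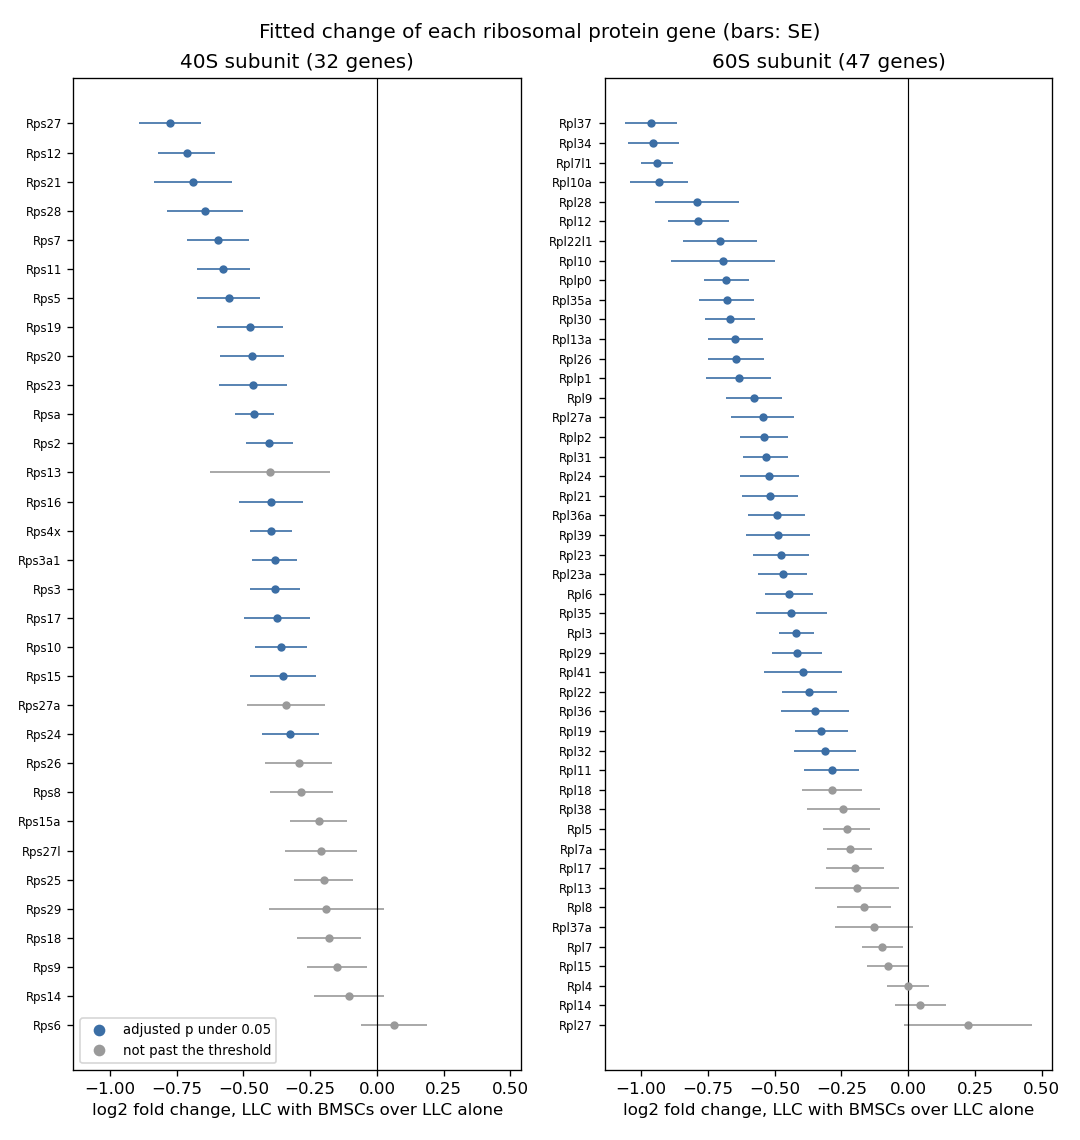
Fitted log2 fold change of the tested members but 1, LLC with BMSCs over LLC alone, with its standard error as a bar, for the 40S subunit (left, 32 genes) and the 60S subunit (right, 47 genes). Blue points passed an adjusted p of 0.05 (54 genes, all below 0), grey points did not (25 genes), and 3 fitted values lie above 0.

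The largest falls were in 60S genes. Rpl37, a small zinc-binding protein near the exit tunnel, had 864, 839 and 1056 FPKM (counts divided by transcript length and by the library's total) in LLC alone and 453, 502 and 482 in LLC with BMSCs. Its log2 fold change was -0.96 ± 0.10 (SE, adjusted p = 1.04e-04 in edgeR). Rpl34 went from 2366, 2306 and 2908 FPKM to 1351, 1311 and 1296, with a log2 fold change of -0.95 ± 0.10 (edgeR, adjusted p = 1.00e-04). In both genes the lowest library of LLC alone was well above the highest of LLC with BMSCs, and adding unnamed loci (described further on) left the log2 fold changes at -0.96 and -0.95. Rpl28 had 1118, 1045 and 1341 FPKM in LLC alone and 843, 620 and 593 in LLC with BMSCs, and its log2 fold change was -0.79 ± 0.16 (edgeR, adjusted p = 0.00297). Replicate 1 of LLC with BMSCs was the highest of its group in that gene. Unnamed loci held 36.2% and 36.0% of the summed reads in replicates 2 and 3 of LLC with BMSCs and 15.7% to 17.9% in the other libraries, and with them added the log2 fold change was -0.56 ± 0.11. Rpl10a, which lies on the L1 stalk where the spent tRNA leaves, was lower by the counts under its own symbol (log2 fold change -0.93 ± 0.11), and by less once the unnamed locus that holds most of its reads was added.

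The P stalk is the flexible arm of the 60S subunit that calls in the elongation factors, and its 4 genes were all lower. Rplp0, the scaffold of the stalk, had 3257, 3215 and 3864 FPKM in LLC alone and 2053, 2242 and 2244 in LLC with BMSCs (log2 fold change -0.68 ± 0.08). Rplp1, an acidic stalk protein and one of the 2 members with the highest FPKM, went from 3736, 3617 and 4910 to 2493, 2791 and 2739 (-0.64 ± 0.12). Its partner Rplp2 went from 1820, 1784 and 2140 to 1351, 1411 and 1251 (-0.54 ± 0.09). Rpl12, at the base of the stalk, changed most, from 3298, 3132 and 4168 to 1926, 2201 and 2115 FPKM (-0.79 ± 0.11). None of these 4 genes overlapped between the groups, and edgeR's adjusted p was between 0.000292 and 0.00238.

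Proteins at other sites of the ribosome fell less evenly. Around the mouth of the peptide exit tunnel, where chaperones and the signal recognition particle dock, 6 of 7 genes were lower with a median of -0.47. Rpl26 had the largest fall there (-0.65 ± 0.10), and Rpl17 was the gene that did not pass the test (-0.20 ± 0.11). Of the 13 genes of the 40S head, the part that holds the mRNA channel's upper side, 10 were lower (median -0.38), led by Rps12 with 2452, 2273 and 3003 FPKM in LLC alone and 1638, 1621 and 1528 in LLC with BMSCs (-0.71 ± 0.11). The 9 genes whose human counterparts are mutated in Diamond-Blackfan anaemia, a failure of red cell formation, had 7 lower with a median of -0.36. Of all genes 31.3% were lower in this fit. With the trend over transcript length removed, a step described further on, 40.1% of all genes were lower. The exit tunnel then had 4 of 7 lower (median -0.17), the 40S head 7 of 13 (-0.13) and the Diamond-Blackfan genes 4 of 9 (-0.10). These lists are short, and the Diamond-Blackfan count was near the share of all genes. The P stalk still had 4 of 4 lower (-0.42). Rpl5 and Rpl11, which carry the 5S rRNA into the ribosome and bind MDM2 when ribosome assembly is disturbed, were near the threshold. Rpl11 was lower (-0.29 ± 0.10, edgeR adjusted p = 0.0404) and Rpl5, with 51.0, 49.7 and 56.2 FPKM against 40.1, 48.5 and 47.3, had a log2 fold change of -0.23 ± 0.09 and an adjusted p of 0.0511 in edgeR.

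In the 40S subunit the largest fall was in Rps27, a zinc-binding protein. It had 2678, 2307 and 3136 FPKM in LLC alone and 1710, 1573 and 1536 in LLC with BMSCs (log2 fold change -0.77 ± 0.12, edgeR adjusted p = 7.09e-04). Rps12 came next, followed by Rps21 (-0.69 ± 0.15), Rps28 (-0.64 ± 0.14) and Rps7 (-0.59 ± 0.12). The parents of 3 further paralogs were lower too. Rpl3, which lies close to the site of peptide bond formation, went from 1301, 1432 and 1493 FPKM to 1031, 1091 and 1086 (-0.42 ± 0.07, edgeR adjusted p = 9.95e-04). Rps4x, the X-linked copy of a 40S body protein, was lower by -0.40 ± 0.08 and Rpl39, a small protein in the tunnel wall, by -0.49 ± 0.12. The 26 members that did not pass the test in edgeR had log2 fold changes between -0.40 (Rps13) and 0.22 (Rpl27).

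Rps2, a protein of the mRNA entry site, was the most abundant member. It had 4732, 5565 and 6002 FPKM in LLC alone and 4123, 4260 and 4120 in LLC with BMSCs (log2 fold change -0.40 ± 0.09, edgeR adjusted p = 0.00474). At the other end of the ordered changes, Rpl4 (-0.00 ± 0.08), Rpl14 (0.05 ± 0.09), Rpl15 (-0.08 ± 0.08) and Rpl7 (-0.10 ± 0.08) did not pass the test. These genes were picked by their place in the order, so the gap between the ends is a description only. Rpl7, a 60S protein of a level near that of Rpl34, had 2008, 1979 and 2333 FPKM in LLC alone. In LLC with BMSCs it had 1905, 2053 and 2043, and the groups overlapped.

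To describe the members against each other, the libraries were also scaled to the summed count of the members in place of all genes. On this scale the median member was at 0.02 and that of all genes at 0.42. There 12 members were lower and 15 higher than the members' own average (background 10.2% lower and 52.6% higher). Rpl37 (-0.54 ± 0.07), Rpl7l1 (-0.53 ± 0.10), Rpl34 (-0.53 ± 0.08), Rpl12 (-0.36 ± 0.07), Rps27 (-0.35 ± 0.10) and Rplp0 (-0.26 ± 0.06) fell more than that average. Rpl4 (0.42 ± 0.07), Rpl14 (0.46 ± 0.08), Rpl7 (0.32 ± 0.06), Rps14 (0.33 ± 0.09) and Rps9 (0.27 ± 0.08) rose relative to it, although none of these was higher against all genes. By these calls the members did not all move by 1 common factor, and their spread as a set was not tested.

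Transcript length bears on these values. The members had a median length of 719 bases in the files (358 to 5284), beside 2886 for all tested genes, and log2 fold changes ran from lower in short to higher in long genes. Spearman's rho between length and log2 fold change was 0.28 over the 13273 tested genes that are no members and 0.15 over the 80 members. Under 1000 bases, 39 of 59 members were lower (median -0.40), and of 1024 other genes 47.4% were lower and 12.2% higher (median -0.34). At 1000 bases and over, 15 of 21 members were lower (median -0.45), and of 12249 other genes 29.7% were lower and 33.3% higher (median 0.04). Against the 101 other genes nearest to it in length, the median member was lower by a further -0.10 on the log2 scale, with 54 members below their neighbours and 26 above. Short members thus lay close to other short genes, and the long ones lay below other long genes. The members are also abundant. At a mean of 200 FPKM or more, 37 of 54 short members were lower (median -0.39). Of 98 other short genes at that level 58.2% were lower and 7.1% higher (median -0.37). In long genes at that level 12 of 14 members were lower (median -0.45), and of 198 others 43.4% were lower and 22.2% higher (median -0.12).

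**Figure D3:**
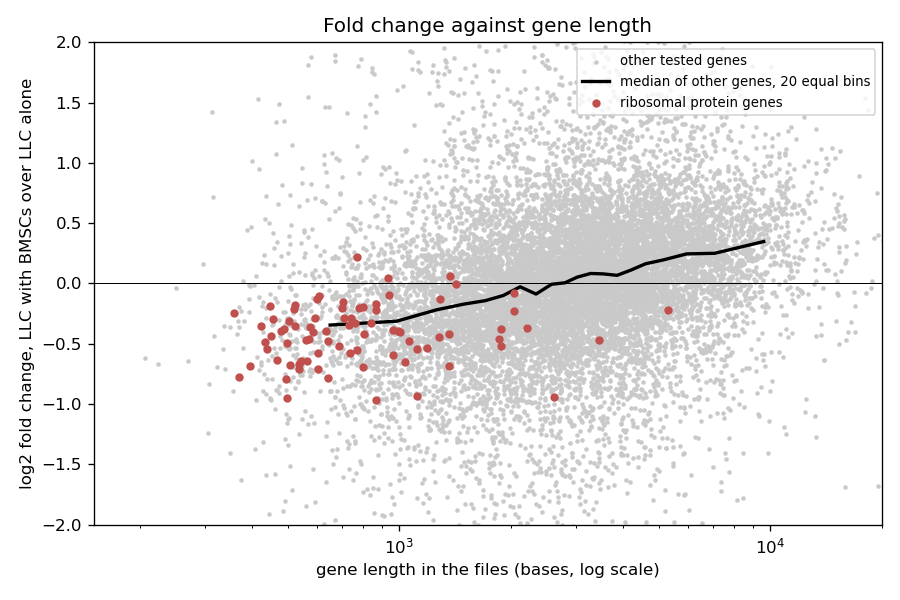
Log2 fold change, LLC with BMSCs over LLC alone (vertical axis, cut at -2 and 2), against gene length in the files (horizontal log axis, bases). Grey points are tested genes that are no members, the black line is their median in 20 bins of equal size, and red points are the 80 tested members, of which the 59 under 1000 bases lie around the line (medians -0.40 and -0.34) and the 21 longer ones mostly below it.

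With the trend over length removed in each library, 44 members were lower and 4 higher (background 40.1% lower and 30.0% higher). Their median log2 fold change was then -0.19, beside -0.06 for all genes. The share of members lower was thereby nearer to that of all genes. Among members under 1000 bases 27 of 59 stayed lower and 3 were higher (median -0.13), and of other genes of that length 38.8% were lower and 24.4% higher (median -0.09). Among those of 1000 bases and over, 17 of 21 were lower and 1 higher (median -0.37, beside 40.2% lower and a median of -0.06 in other long genes). At 200 FPKM or more, 26 of 54 short members were lower and 3 higher (median -0.12). Of 98 other short genes at that level 44.9% were lower and 26.5% higher (median -0.12). In long genes at that level 12 of 14 members were lower and 1 higher (median -0.35), and of 198 others 48.5% were lower and 31.3% higher (median -0.11). The 4 members called higher were Rpl14 (0.24), Rps14 (0.17), Rpl4 (0.11) and Rpl7 (0.10). The falls of Rpl37 (-0.75), Rpl34 (-0.65), Rpl12 (-0.52) and Rplp0 (-0.56) kept an adjusted p under 0.05 in edgeR.

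The correction depends on which length is used. GENCODE M21 lists a median coding transcript of 704 bases for the members, and 11 of the 21 members with 1000 bases or more in the files have a median under 1000 there. Rps15a is the extreme case, with 5284 bases in the files and a GENCODE median of 638. With the trend over the GENCODE lengths removed, a choice made after the data were seen, 55 members were lower and 0 higher (background 38.3% lower and 28.8% higher), with a median of -0.34 beside -0.06 for all genes. In that fit other short genes stayed lower too. Under 1000 bases in the files, 39 of 59 members were lower (median -0.32). Of 1024 other genes of that length 47.6% were lower and 15.6% higher (median -0.25). For 9.13% of the tested genes GENCODE gave no length and the files' length was kept. In 10 members both sources give at least 1000 bases. Among these 8 were lower before the correction (median -0.45) and 9 after removal of the trend over the files' lengths (median -0.37). They include Rpsa (-0.41), the laminin-binding 40S protein, Rps20 (-0.61) and Rpl6 (-0.31). With the trend over the files' lengths removed, members under 1000 bases had a median of -0.13 and other genes of that length -0.09. The part of length in the falls of short members was not tested.

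Some members, core proteins of the ribosome among them, were listed at low values. In 12 members the mean was under 200 FPKM, while the median member had 1137. In 9 of these 12, most reads stood under unnamed loci that the authors' pipeline had assembled and that carry the same KEGG orthology term as the member. The share of the reads held by such loci was 97.7% for Rps6, 97.3% for Rpl31, 96.3% for Rpl10, 95.7% for Rps29, 94.1% for Rpl15, 93.7% for Rpl5, 86.3% for Rpl10a, 84.9% for Rps13 and 80.4% for Rpl27. For Rpl10a, Rpl27, Rps29 and Rplp1 the estimated counts of the gene and of its largest unnamed locus were fractional but summed to whole numbers (within 0.03) in 6 of 6 libraries, so that reads were divided between the pair. The sums were whole in 0 libraries for Rps6 and Rpl5, 1 for Rpl31 and Rps13, 2 for Rpl10 and 3 for Rpl15. With all loci of the gene added, they were whole in 6 libraries for Rpl15 and still in 0 for Rps6 and Rpl5. In all, 205 unnamed loci carried the term of a member, and they took 0.745% to 1.12% of the counts. Of these, 195 carried a term that only 1 member has, for 54 members in all. The other 10 carried a term of more than 1 member and were added to none in the sums below. An orthology term does not tell a gene from its processed pseudogenes.

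Rps6, the 40S protein phosphorylated by S6 kinase, shows the effect of adding these loci, although its counts and theirs summed to whole numbers in 0 libraries. Under its own symbol it had 19.5, 21.9 and 24.4 FPKM in LLC alone and 19.5, 23.7 and 26.4 in LLC with BMSCs. Summed with its loci it had 1560, 1537 and 1965 and then 1499, 1586 and 1540, as much as other members. The groups overlapped on either scale, with log2 fold changes of 0.06 ± 0.12 and -0.15 ± 0.10 (edgeR, adjusted p = 0.673 and 0.216).

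**Figure D4:**
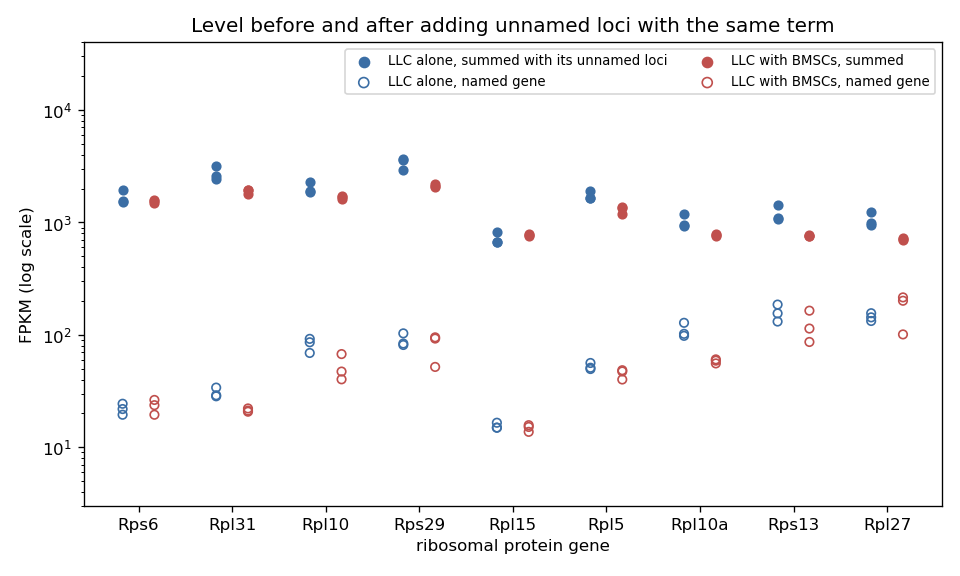
FPKM on a log axis for the 9 members with most reads under unnamed loci, LLC alone in blue and LLC with BMSCs in red, with 3 libraries per group. Open circles are the gene under its own symbol, between 13.7 and 216 FPKM, and filled circles are the gene summed with its loci, between 668 and 3683 FPKM.

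After summing, 57 members were lower and 0 higher (background 31.5% lower), with a median of -0.42, and 53 of the 57 were also lower without summing. Calls changed in 5 genes. Rps29, a zinc-binding protein of the 40S head, went from 83.7, 81.3 and 103 FPKM against 51.9, 92.7 and 95.1 to a summed 2938, 3581 and 3683 against 2057, 2222 and 2127, which no longer overlapped, and its log2 fold change from -0.19 to -0.69 ± 0.09 (edgeR, adjusted p = 3.64e-04). Rpl27 turned in direction, from 0.22 (adjusted p = 0.439) to -0.59 ± 0.10 (adjusted p = 0.00135, edgeR). Rps13 went from -0.40 to -0.68 ± 0.11 and Rpl5 from -0.23 to -0.43 ± 0.08, both then past the threshold. Rpl11 was no longer past it (-0.25, edgeR adjusted p = 0.0813). Values shrank in Rpl10a, from -0.93 to -0.47 ± 0.10, in Rpl10, from -0.69 to -0.29 ± 0.09, and in Rpl28, as given above, and all 3 remained called. Rpl15 stayed out (0.07 ± 0.09). With the trend over the files' lengths removed as well, 46 members were lower and 7 higher (background 40.3% and 30.2%), with a median of -0.20. The 18 tested members whose counts were whole in every library, and so shared no reads, had 13 lower and 0 higher with a median of -0.41.

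Several ribosomal proteins have a second gene copy, a paralog, whose product can take the parent's place. Rpl22l1, the paralog of Rpl22, was at 29.6%, 33.6% and 32.8% of its parent in LLC alone and at 22.9%, 25.1% and 28.0% in LLC with BMSCs, in counts per length. The log2 ratio was lower by -0.34, and by -0.22 in FPKM (exact permutation test, two-sided, p = 0.1 and 0.2). Rpl7l1, a pre-60S factor related to Rpl7, went from 9.52%, 10.3% and 9.01% to 5.51%, 5.35% and 5.17% of Rpl7 (log2 difference -0.85, exact permutation p = 0.1). Rps27l, a p53 target and copy of Rps27, moved the other way, from 13.3%, 15.1% and 14.8% of Rps27 to 17.1%, 22.4% and 25.0% (log2 difference 0.56, exact permutation p = 0.1). The groups did not overlap in any of the 3 ratios of counts per length. The smallest p that 3 against 3 libraries allow is 0.1, and adjusted over the 3 pairs all remained at 0.1. By gene, Rpl7l1 fell most clearly, from 181, 194 and 200 FPKM to 99.5, 104 and 99.9 (log2 fold change -0.94 ± 0.06, edgeR adjusted p = 1.05e-05), with Rpl7 at -0.10. Rpl22l1 was lower by -0.71 ± 0.14 and Rpl22 by -0.37 ± 0.10. For Rps27l the log2 fold change was -0.21 ± 0.14 and did not pass the test, whereas Rps27 was lower by -0.77 ± 0.12. The ratios are not corrected for the length trend, and Rpl22l1 (602 bases) is much shorter than Rpl22 (2203 bases). With that trend removed, Rpl22l1 was at -0.43 and Rpl22 at -0.37, close to each other. Rpl7l1 and Rpl7 were then at -0.99 and 0.10, and Rps27l and Rps27 at 0.09 and -0.42. Rpl3l, the muscle paralog of Rpl3, had 0 to 4 counts per library, and Rpl39l, the germ cell paralog of Rpl39, had at most 1 count.

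**Figure D5:**
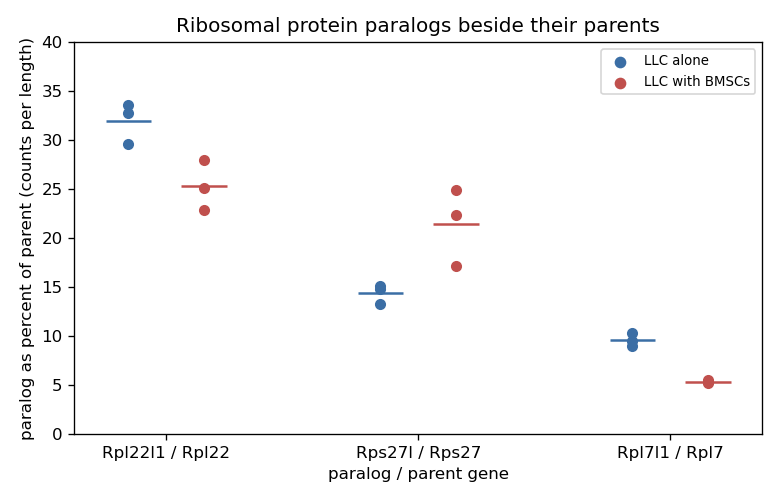
Level of 3 paralogs as a percent of the parent gene, in counts per length, for each library (points) with the mean of the group (line), LLC alone in blue and LLC with BMSCs in red. Rpl22l1 and Rpl7l1 stand lower and Rps27l stands higher beside its parent in LLC with BMSCs, with no overlap of the 3 and 3 points. The trend of fold change over length is not removed.

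Within genes, transcript shares moved in several members. Of 31 transcripts of 14 members with a mean share between 5% and 95% of the gene, 16 did not overlap between the groups (31.6% of 14033 such transcripts in all genes). Shares of the same gene depend on each other, so a single change can be counted in several transcripts. In Rpl22l1 an assembled transcript made up 36.4%, 34.5% and 34.8% of the gene in LLC alone and 18.2%, 20.3% and 17.8% in LLC with BMSCs, while the annotated form NM_026517 went from 41.8%, 35.0% and 41.1% to 53.5%, 48.7% and 54.3%. In Rpl29, a 60S protein of basic sequence, the minor form NM_009082 went from 8.35% ± 0.309 to 13.5% ± 0.656 (SD, n = 3 each). In Rpl41, the shortest ribosomal protein, NM_018860 went from 92.1% ± 0.722 to 88.5% ± 0.320. These shares are estimates that divide reads among overlapping transcripts, and they were not tested.

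Genes around the ribosome did not follow the members as a block (of all genes 31.5% were higher and 31.3% lower). Among the ribosomal proteins outside the symbol rule, Rack1, the scaffold protein on the 40S head, was lower (-0.47 ± 0.08, edgeR adjusted p = 0.00123). Fau (-0.17 ± 0.10) and Rpl36al (-0.10 ± 0.12) did not pass the test. Of the 6 elongation factors 1 was higher and 2 were lower, with Eef2, the translocase, at 0.19 ± 0.06 and Eef1b2, a nucleotide exchange factor, at -0.40 ± 0.09. The 11 other 5′ TOP genes had 4 higher and 4 lower with a median of 0.07 (6 and 5 with the length trend removed, median 0.17). They ran from Tpt1 (-1.30 ± 0.31), the translationally controlled tumour protein, to Hnrnpa1 (0.60 ± 0.06), a splicing regulator. The 24 initiation factors had 4 higher and 9 lower (median -0.02, and 0.02 without LLC alone replicate 3), from Eif1 (-1.21 ± 0.09), which guards start codon choice, to the helicase Eif4a2 (0.82 ± 0.09). Of 15 genes of mTORC1 and its control of 5′ TOP mRNAs, 3 were higher and 5 lower (median 0.13). This is a list of long genes, and the direction of its median turned with the length trend removed (2 higher, 7 lower, -0.10) and without LLC alone replicate 3 (-0.03). Rheb, the GTPase that switches mTORC1 on, fell from 159, 159 and 186 FPKM to 68.4, 75.0 and 73.7 (-1.23 ± 0.08, edgeR adjusted p = 1.21e-05). The largest rise there, Rps6ka1, was at or under 0.23 FPKM in every library.

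The mitochondrial ribosomal proteins, a separate set that serves the mitochondrial genome, offer a comparison of similar kind with longer transcripts (median 1067 bases). Of 77 genes 43 were lower and 2 higher with a median of -0.26, and with the length trend removed 37 were lower and 15 higher (median -0.13). Constitutive proteasome subunits had 15 of 34 lower and 3 higher (median -0.20). With the length trend removed 14 were lower and 7 higher (median -0.08). Of all genes 31.3% were lower and 31.5% higher in the main fit, and 40.1% and 30.0% with the trend removed. The share of proteasome genes lower was then near that of all genes. The cytosolic members had a lower median than either list in both fits, and this difference was not tested.

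Markers of other cells moved with the groups. Of 9 neutrophil markers in the files all 7 that were tested were higher in LLC with BMSCs, and their summed level went from 0.469 to 0.818 CPM (counts scaled to the library total) up to 22.5 to 26.2 CPM, with Mmp8 at 0 in LLC alone. All 8 tested markers of BMSCs and fibroblasts were higher, from 268 to 325 CPM up to 676 to 703 CPM, with Cxcl12 and Thy1 at 0 in LLC alone. Macrophage markers summed to 23.9 to 28.5 CPM and 28.7 to 31.1 CPM (4 of 6 higher, 1 lower; Adgre1, C1qa and C1qc at 0 in LLC alone), and erythroid markers to 8.56 to 8.98 and 11.2 to 12.1 CPM (3 of 5 higher, 1 lower). Endothelial markers (1.04 to 1.28 and 1.36 to 1.71 CPM, none of 2 called) and lymphocyte markers (0.299 to 0.390 and 0.227 to 0.360 CPM, none tested, Nkg7 at 0 in LLC alone) had low sums, which did not overlap between the groups for the endothelial list. Epithelial markers, with Krt19 at 0 in LLC alone, summed to 157 to 177 and 189 to 197 CPM, and both that were tested were higher. Markers near 0 in LLC alone could pass the low-count filter only through LLC with BMSCs. Their calls as higher were thus largely set by the filter, and the sums are a description. The part of these cells in the lower ribosomal protein share was not tested.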

How the data were processed

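RNA sequencing libraries were grouped by the sample titles into LLC alone (3) and LLC with BMSCs (3). Estimated counts of genes and transcripts, which need not be whole, were deposited by the authors beside FPKM values and a length for each gene. Their notes name HISAT, StringTie, Cufflinks and GATK and the build mm8, without roles, and strand use is not given in the sources used here. The paper describes oligo-dT selection and BGISEQ-500 reads, whereas the labels name Illumina protocols. Of the genes 1151 had no symbol, and 27 symbols stored as dates were restored. Depth of 33476347 to 46189113 counts places 3 counts at 0.0650 to 0.0896 CPM, and such limits cover counting error only.

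Counts were rounded and tested with edgeR 4.0.16 (R 4.3.3, TMM, filterByExpr, quasi-likelihood test, Benjamini-Hochberg over all tested genes, threshold 0.05). The SE is the absolute log2 fold change over the square root of the F statistic. The length trend was a natural spline with 5 degrees of freedom on log2 length in each library, entered as an offset. The tests were tried on simulated counts. Alternatives were DESeq2 1.42.0, limma 3.58.1 on log2 FPKM with a pseudocount of 1 or 0.1 (genes reaching 1 FPKM in 3 or more libraries), other scalings, filters and lengths, and single libraries left out. Unnamed loci were joined to members by the authors' KEGG orthology terms, where only a single member had the term. Promoter windows and lengths came from RefSeq and GENCODE M21.

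The members and lists were chosen with earlier results of these data known. Genes named are the 5 largest called falls and rises with at least 100 normalized counts, the P stalk, Rpl5, Rpl11, Rps6, the paralogs with their parents, the 2 most abundant members, members failing the filter, and the largest rise and fall of each list. Others were named after their values were seen. Rpl10l and Rps4l, listed among the paralogs, were not analysed here, and some genes of the lists are not reported here.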

Additional observations from a re-analysis of the deposited data

Results flagged for a closer look

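Of all 13353 tested genes 31.5% were higher in LLC with BMSCs and 31.3% lower (edgeR, adjusted p under 0.05). Above, the unnamed assembled loci with the orthology term of a member entered as sums and shares, and their own changes were not given. Rises were less frequent among these loci than among all genes, with 11 of the 92 tested higher in LLC with BMSCs and 26 lower. Given here are the 3 that rose by a log2 fold change of 1 or more, with no overlap between the groups and a mean of at least 100 counts in LLC with BMSCs. BGI_novel_G000925, with the term of large subunit protein L29e, had 0, 1.29 and 2.97 estimated counts in LLC alone and 149, 155 and 161 in LLC with BMSCs. Its fitted log2 fold change of 6.64 depends on the prior count, since LLC alone lies at or under the floor of 3 counts per library. BGI_novel_G001216 (small subunit S2e) had 0, 5.79 and 4.62 against 185, 77.2 and 530 counts, a log2 fold change of 6.02 ± 1.05 (SE, edgeR adjusted p = 0.00161). BGI_novel_G001198 (large subunit L3e) had 12.7, 10.2 and 29.7 against 281, 276 and 288 counts, with 3.90 ± 0.24 (edgeR adjusted p = 9.03e-06). The choice of loci without overlap fixed in advance that each stood above LLC alone in 3 of 3 libraries. BGI_novel_G000925 and BGI_novel_G001216, near 0 in LLC alone, passed the low-count filter only through LLC with BMSCs. The adjusted p-values given here thus add no support beyond the selection, and the counts are a description.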

How the results depend on the processing

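Of 24 fits that were not scaled to the members themselves, 40 members were lower in every one. The fits share the same libraries, and the share of all genes lower in every fit is not given here. In the main fit alone 31.3% of all genes were lower. Leaving out each library in turn gave 42 to 59 members lower, 0 to 1 higher (1 without LLC with BMSCs replicate 1) and medians of -0.47 to -0.29. Without LLC alone replicate 3, adding unnamed loci gave 1 higher, and removing the length trend gave 6 higher with a median of -0.19. Removing the length trend in all libraries gave 4 higher and -0.19, with the replicate block too 6 higher and -0.19, and with unnamed loci 7 higher and -0.20. Without the length trend the sign of Rpl7 turned (0.10, with the replicate block 0.10, with unnamed loci 0.11), as did that of Rps27l (0.087, 0.086 and 0.10) and, with unnamed loci, Rpl11 (0.045). The sign of Rps6 turned with unnamed loci (-0.15, and -0.025 without the length trend too), with close pairs of libraries summed (-0.025) and on leaving out single libraries (-0.037 to 0.17, below 0 without LLC alone replicate 1 or LLC with BMSCs replicate 3). Scaling to the members gave 12 lower, 15 higher and a median of 0.017, and with unnamed loci 13, 15 and -0.0089. The number of members lower was 13 at an adjusted p under 0.001, and 27 at one under 0.05 with a log2 change of 0.5 or more. Of all genes 18.0% passed the second limit on the lower side, and the share for the first is not given here. With unnamed loci the members took 6.77% of the counts in LLC with BMSCs. Over the 22 named members tested, 427 of 462 alternative values kept direction and side of the threshold, 12 turned in sign, and 14 fell below and 9 rose past the threshold with their sign kept. Settings with unnamed loci, GENCODE lengths or the members' scale were chosen after the data were seen. The cause was not tested.

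The replicate numbers share only a number: deviations correlated at 0.08, -0.11 and 0.06 between same-numbered libraries, and the replicate block gave 57 lower and 0 higher. The replicate counts of 3 per group, divided counts and the length listed for each gene limit what single members show.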
